A study of Mus musculus with 6 samples.

Results

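Activator protein 1 (AP-1) is a family of transcription factors built from Fos proteins (Fos, Fosb, Fosl1 and Fosl2) and Jun proteins (Jun, Junb and Jund). Here the family was taken as the rows of the expression table whose gene symbol was one of these names, and all 7 genes were found among the 21456 genes of the table. The genes were chosen by their genotype difference in the mice studied here, that is by the normalized counts of the same 6 mice, so their differences between genotypes are described below and were not tested. A Fos protein binds DNA as a dimer, mainly with a Jun protein, whereas Jun proteins also pair with each other. Both kinds of dimer hold DNA through a basic leucine zipper (bZIP). The family is best known as a relay from growth factor, cytokine and stress signals to transcription. Several of its genes are immediate early genes, which are transcribed within minutes of a signal without new protein synthesis. In adipose tissue the family has a textbook link to the gene for the fatty acid carrier Fabp4, whose promoter carries an AP-1 site.

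RNA-seq was performed on the white adipose tissues (WATs) of 3 control and 3 Ntsr2 AKO mice. All 6 animals carried Ntsr2 flox/flox alleles, in which the gene for neurotensin receptor 2 is flanked by sites for Cre recombinase. The Ntsr2 AKO mice also carried Adipoq-cre, which is active in adipocytes, so other cells of the tissue keep the receptor gene. The mice had been fed a chow diet. Age, sex, fat depot and any pooling of animals are not given for this experiment in the sources used here, and the mice are named below by the numbers 3, 4 and 5 of their labels. Nothing further is stated on how the animals were matched, so the tests measure only the spread between these mice. Values are normalized counts, that is the read count of a gene divided by 1 size factor per mouse.

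Ntsr2 was read at 83.8, 64.0 and 153 normalized counts in controls 3, 4 and 5, and at 3.10, 8.29 and 0 in Ntsr2 AKO mice 3, 4 and 5. The 0 allows up to 3.04 normalized counts, counting error only. Adipoq, the adipocyte hormone gene, lay between 163803 and 220865 in controls and between 175152 and 197720 in Ntsr2 AKO mice, and all 8 adipocyte markers examined were above 10 normalized counts in every mouse. The libraries of controls held 60405373 to 66098226 reads and those of Ntsr2 AKO mice 54085088 to 56268725, so every control library was the deeper. Transcripts of skeletal muscle stood out in 3 libraries. The 10 muscle markers together took 3.999% of the normalized counts of control 5, 0.309% of Ntsr2 AKO 5 and 0.143% of Ntsr2 AKO 4, but no more than 0.00257% in control 3, control 4 and Ntsr2 AKO 3. For this reason the genotype differences of the members and the list medians are also given without these 3 mice, which leaves 2 controls and 1 Ntsr2 AKO mouse. In bulk tissue, fewer cells of a type and less RNA per cell cannot be told apart.

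Promoter windows from RefSeq on GRCm38.p6, 250 bases before to 50 bases after the transcription start, were at hand for 6 of the 7 genes (all but Fosl1). The stretches shown hold, nearest to the start, a core of the cAMP response element, TGACG, or its 8-base AP-1 relative TGACATCA, because the genes with TGACG (Fos, Fosb and Junb) are also the genes of these 6 with the lowest Ntsr2 AKO levels relative to control. These motifs were picked with the values known, so their match to the size of the difference was built in, and a link between them was not tested. Each is written 5′ to 3′ on the strand of the gene, in lower case with the motif in capitals.

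Fos, chr12:85473812-85473841, plus strand: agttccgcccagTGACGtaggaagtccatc

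Fosb, chr7:19310088-19310117, minus strand: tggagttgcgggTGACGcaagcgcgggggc

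Junb, chr8:84978837-84978866, minus strand: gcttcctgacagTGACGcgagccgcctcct

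Jun, chr4:95052249-95052278, minus strand: aagcctcggggTGACATCAtgggctatttt

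The capitals in Fos start 66 bases before the transcription start (a second TGACG, not shown, lies at -129 to -125), those in Fosb 60, those in Junb 106 and those in Jun 45. TGACG was found on either strand in 20.8% of all 32851 windows, and TGACATCA in 3.62%. TGACG is also the first part of the full element TGACGTCA, which was in 1.79% of windows and in none of the 6. The AP-1 site TGACTCA was in 5.20% of windows, the CArG box bound by serum response factor in 1.63%, and neither was in these 6 windows. TATAA was in the windows of Fos and Junb (24.9% of all windows) and CCAAT in those of Jun and Junb (37.4%). A match describes the letters only, and a missing motif says only that its letters are not in the window. The RefSeq start of Fosl2 lies 671 bases inside the GENCODE M21 gene and that of Jund 1210 bases before it, so their windows describe a different start from the annotated one. Distances are counted from the RefSeq start, which for Junb lies 30 bases before the GENCODE start and for Fosb 6 bases inside the gene. The TATAA of Junb lies at 1 to 5, after its RefSeq start.

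The 7 genes lie on 6 chromosomes of GRCm38 in GENCODE M21. Fos (chromosome 12, 85473890 to 85477273, plus strand), Fosb (chromosome 7, 19302696 to 19310051, minus), Fosl1 (chromosome 19, 5447547 to 5455946, plus) and Fosl2 (chromosome 5, 32135801 to 32157842, plus) each have 4 exons in their longest transcript. Jun (chromosome 4, 95049034 to 95052222, minus), Junb (chromosome 8, 84974484 to 84978718, minus) and Jund (chromosome 8, 70698949 to 70700616, plus) have 1 exon. The exons of Fosl1 share 1163 bases with Ccdc85b on the other strand, and those of Junb share 173 bases with Prdx2. Those of Jund share 877 bases with the antisense gene Gm11175, and those of Jun share 232 bases with the antisense gene Junos. Gm11175 was read at no more than 2.0 normalized counts in any mouse, and Junos has no value here. Ccdc85b lay between 1819 and 2026 normalized counts in controls and between 1457 and 1864 in Ntsr2 AKO mice, and Prdx2 between 6949.5 and 8592 and between 7258 and 8932. Whether counting used the strand is not given in the sources used here. Reads of a member and of the gene it overlaps therefore cannot be told apart in the shared bases. In Ntsr2 AKO mice 4 and 5, Ccdc85b was read at 1457 and 1864 and Fosl1 at 90.2 and 87.0. No more than those Fosl1 counts can be reads of Ccdc85b in these mice.

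The first comparison was of the family between Ntsr2 AKO and control WATs. All 7 genes had lower mean log2 values in Ntsr2 AKO mice, against 51% of the 16157 genes with a mean of at least 10 normalized counts, the genes tested. The loss ran from 27.5% of the control mean for Jund to 93.0% for Fosb. The median difference of the 7 genes was -1.92 on the scale log2(normalized count + 1), and that of all genes tested was -0.01. In 5 genes (Fos, Fosb, Fosl1, Junb and Jund) the highest Ntsr2 AKO value was below the lowest control value, which held for 8.16% of all genes tested. Since this contrast was used to pick the genes, nothing was read from these counts. The plot of normalized counts by mouse shows the separation for each gene.

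**Figure D1:**
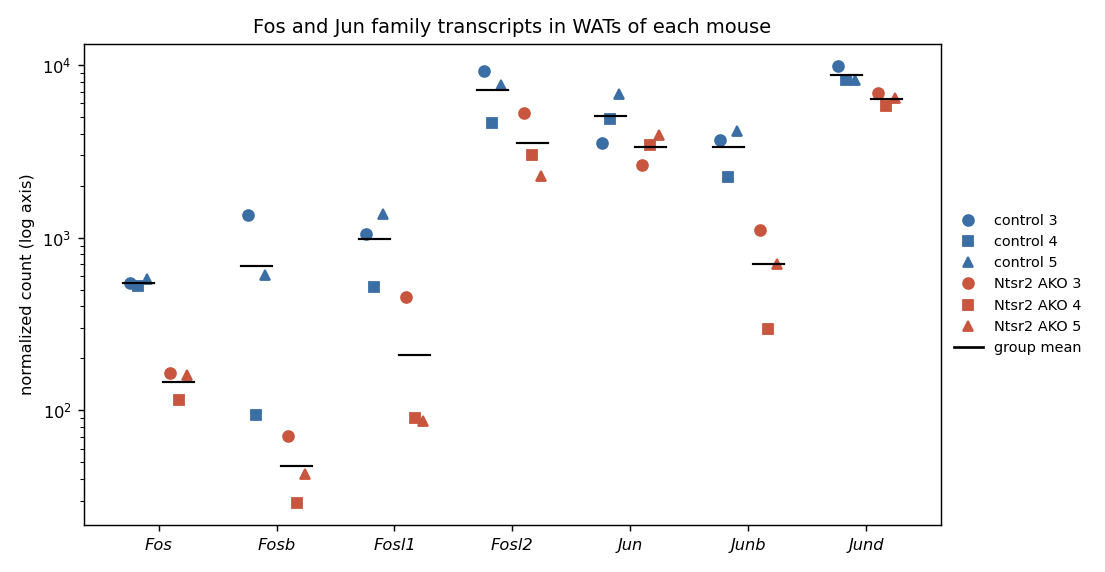
Normalized counts of the 7 Fos and Jun genes in each of 3 control and 3 Ntsr2 AKO mice (log axis, 1 column per gene, blue and red symbols are single control and Ntsr2 AKO mice, black lines are group means). The groups overlap in Fosl2 and Jun and are apart in the other 5 genes, and the controls lie closest together in Fos (527 to 575) and farthest apart in Fosb (93.9 to 1352).

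Among the Fos genes, Fos is the classical immediate early member, whose protein pairs with Jun. Fos was read at 546, 527 and 575 normalized counts in controls 3, 4 and 5 and at 165, 114 and 160 in Ntsr2 AKO mice 3, 4 and 5. The controls were nearly level, with an SD of 0.06 on the log2 scale, and every Ntsr2 AKO mouse was far below them. The Ntsr2 AKO mean of 146 ± 28.1 (SD, n = 3) was 26.7% of the control mean of 549 ± 23.9, a log2 difference of -1.92 (SE 0.21). Without the 3 mice with muscle transcripts the difference was -1.69.

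Fosb encodes a second signal-induced Fos protein, known for a stable shortened form that builds up in neurons under repeated stimulation. It was read at 1352, 93.9 and 607 normalized counts in the controls and at 71.2, 29.0 and 42.5 in the Ntsr2 AKO mice. The controls spanned 14.4-fold, and control 4 was nearer to the highest Ntsr2 AKO mouse than to the other controls. The means were 684 ± 633 and 47.6 ± 21.6, a log2 difference of -3.23 (SE 0.94). Without control 4 the difference was -4.32, without control 3 it was -2.40, and without the 3 mice with muscle transcripts it was -2.31.

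Fosl1 encodes Fra-1, which lacks the transactivation domain of Fos and is itself a target of AP-1. It was read at 1046, 521 and 1379 normalized counts in the controls and at 454, 90.2 and 87.0 in the Ntsr2 AKO mice. Ntsr2 AKO 3 was close to control 4, and the other Ntsr2 AKO mice were some way below both. The means were 982 ± 433 and 210 ± 211, a log2 difference of -2.56 (SE 0.70). The difference shrank to -0.70 without the 3 mice with muscle transcripts, which leaves Ntsr2 AKO 3 as the only knockout.

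Fosl2 encodes Fra-2, the Fos protein whose gene had the highest level per kilobase of the 4. It was read at 9211, 4589 and 7635 in the controls and at 5260.1, 3014 and 2282 in the Ntsr2 AKO mice. The groups overlapped, since Ntsr2 AKO 3 was above control 4. The Ntsr2 AKO mean of 3519 ± 1552 was 49.2% of the control mean of 7145 ± 2350, a log2 difference of -1.05 (SE 0.37). It was -0.31 without the 3 mice with muscle transcripts.

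Among the Jun genes, Jun encodes the c-Jun protein, the target that gave the Jun N-terminal kinases their name. Jun was read at 3539, 4857 and 6802 normalized counts in the controls and at 2636, 3436 and 3950.0 in the Ntsr2 AKO mice. The groups overlapped, with Ntsr2 AKO 5 above control 3. The means were 5066 ± 1642 and 3341 ± 662, a log2 difference of -0.57 (SE 0.26). It was -0.33 without control 5, the highest mouse, and -0.65 without all 3 mice with muscle transcripts.

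Junb encodes a Jun protein with weaker transactivation than c-Jun that can hold it back in dimers. It was read at 3702, 2234 and 4135 normalized counts in the controls and at 1101, 297 and 700.3 in the Ntsr2 AKO mice. No Ntsr2 AKO mouse came near the lowest control mouse, control 4. The Ntsr2 AKO mean of 699.7 ± 402 was 20.8% of the control mean of 3357 ± 997, a log2 difference of -2.40 (SE 0.48), and -1.38 without the 3 mice with muscle transcripts.

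Jund encodes the Jun protein that is expressed steadily in most tissues and responds least to growth signals. It was read at 9896, 8201 and 8248 normalized counts in the controls and at 6890, 5757 and 6456 in the Ntsr2 AKO mice. The groups did not overlap, the mice of each lay close together, and the difference was the smallest of the 7. The means were 8782 ± 966 and 6368 ± 572, a log2 difference of -0.46 (SE 0.13). It ran from -0.52 to -0.34 over the 17 other settings tried and was -0.39 without the 3 mice with muscle transcripts.

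The plot of log2 differences sets the 7 genes side by side. Over those settings each gene stayed lower in Ntsr2 AKO mice, with differences of -2.01 to -1.69 for Fos, -4.32 to -2.31 for Fosb, -3.35 to -0.70 for Fosl1, -1.39 to -0.31 for Fosl2, -0.80 to -0.33 for Jun and -2.83 to -1.38 for Junb.

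**Figure D2:**
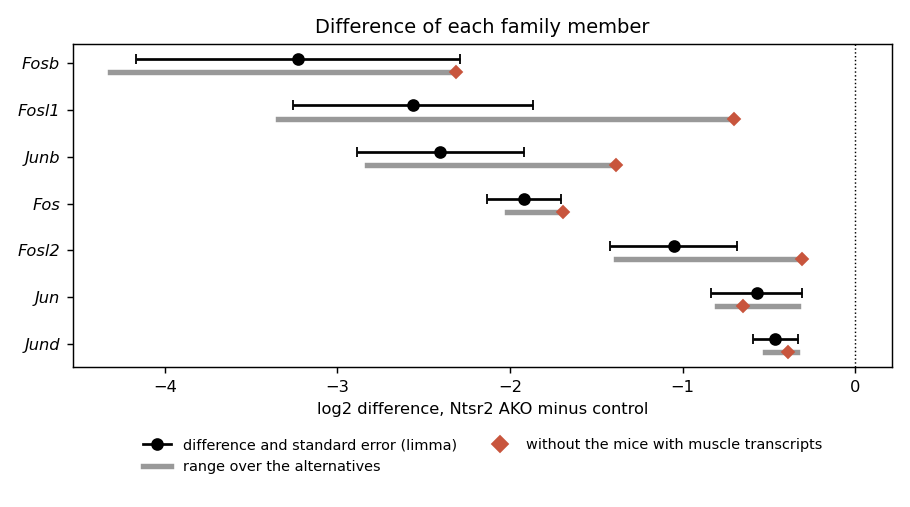
Log2 difference, Ntsr2 AKO minus control, of log2(normalized count + 1) for each Fos and Jun gene, as a black point with its standard error, above a grey bar for the range over the 17 other settings and a red diamond for the value without the 3 mice with muscle transcripts. Fosb is farthest from 0 at -3.23 and has the widest error, while Jund and Jun are nearest to 0 at -0.46 and -0.57.

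The same mice were high or low in most of the family. Control 4 was the lowest control mouse in 6 of the 7 genes, all but Jun, in which control 3 was the lowest. Ntsr2 AKO 3 was the highest Ntsr2 AKO mouse in 6 of the 7 genes, and in Jun it was the lowest. Control 5, the mouse with the most muscle transcripts, was the highest control mouse for Fos, Fosl1, Jun and Junb, and control 3, which had almost none, for Fosb, Fosl2 and Jund. Among the Ntsr2 AKO mice, mouse 4 was the lowest in Fos, Fosb, Junb and Jund and mouse 5 in Fosl1 and Fosl2, and both had muscle transcripts. The part of muscle in the family's values was not tested.

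The next question was which members make up most of the family's RNA, a comparison between genes that was not used to pick them. For this, normalized counts were divided by the length of the merged exons. That length includes bases shared with another gene, among them 1163 for Fosl1 and 877 for Jund. How reads in those bases were assigned is not given, so the levels of these genes can be too low or too high. Jund was the most abundant at 5265 ± 579 normalized counts per kilobase in controls and 3817 ± 343 in Ntsr2 AKO mice (SD, n = 3 each). Jun followed at 1589 ± 515 and 1048 ± 208, and Junb at 1459 ± 433 and 304 ± 175. In controls the Fos genes were all lower than the Jun genes, with Fosl2 at 738 ± 243 and 364 ± 160.3, Fosl1 at 483 ± 213 and 104 ± 104, Fos at 233 ± 10.2 and 62.2 ± 12.0, and Fosb at 110 ± 101 and 7.62 ± 3.45. Averaged over all mice, Jund lay at the 96.4th percentile of the genes tested that have a length and Fosb at the 28.7th.

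Neighbours in this order were compared within each mouse by a two-sided exact sign-flip test over the 6 mice, which cannot give a p below 0.03125. Jund was above Jun in 6 of 6 mice by 1.83 ± 0.46 (SD) on the log2 scale, Fosl2 above Fosl1 in 6 of 6 by 1.42 ± 1.01, and Fos above Fosb in 6 of 6 by 2.44 ± 1.45, each at the smallest p and an adjusted p of 0.0625 over the 6 pairs by this exact test. Jun was above Junb in 5 of 6 mice by 1.04 ± 1.29 (exact p = 0.09375, adjusted p = 0.140625), and Fosl1 above Fos in 4 of 6 by 0.62 ± 0.95 (exact p = 0.1875, adjusted p = 0.225). Junb was above Fosl2 in 4 of 6 mice by 0.32 ± 0.92 (exact p = 0.46875). These results hold for merged exons. In control 3, Fos and Fosb were nearly level, at 232 and 217 normalized counts per kilobase. With the length of the longest transcript, Fos over Fosb was 1.88, and its adjusted p by the exact test rose to 0.125. It rose to 0.09375 for Jund over Jun and for Fosl2 over Fosl1. All of these ratios pool both genotypes, between which several differed widely. Jun over Junb was 0.12 in controls and 1.96 in Ntsr2 AKO mice, Junb over Fosl2 was 0.99 and -0.36, and Fosl2 over Fosl1 was 0.66 and 2.19, so the pooled value describes neither genotype for these pairs. No pair passed 0.05 after adjustment, which with 6 mice and 6 pairs needs at least 4 pairs at the smallest p.

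Summed per kilobase, the 7 genes gave 10566, 8380 and 10684 normalized counts in controls 3, 4 and 5, and 6284, 5067 and 5767 in Ntsr2 AKO mice 3, 4 and 5. The Ntsr2 AKO sums amounted to 57.8% ± 6.19 of the control mean (SD, n = 3). The groups did not overlap, and the highest Ntsr2 AKO mouse was at 63.6% of the control mean while the lowest control mouse was at 84.8%. The make-up of the sum differed as well. Jund made up 53.7% ± 6.55 of it in controls and 67.0% ± 1.2 in Ntsr2 AKO mice, and Junb 14.5% ± 2.68 and 5.15% ± 2.53. Jun kept a like share, 16.2% ± 5.03 and 18.6% ± 4.75. The 4 Fos genes together made up 18.1%, 11.6% and 16.9% in controls and 13.5%, 8.07% and 6.13% in Ntsr2 AKO mice, and these ranges overlapped because control 4 was below Ntsr2 AKO 3. The shares derive from the contrast that picked the genes and are a description, as is the stacked plot of the family's level per mouse.

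**Figure D3:**
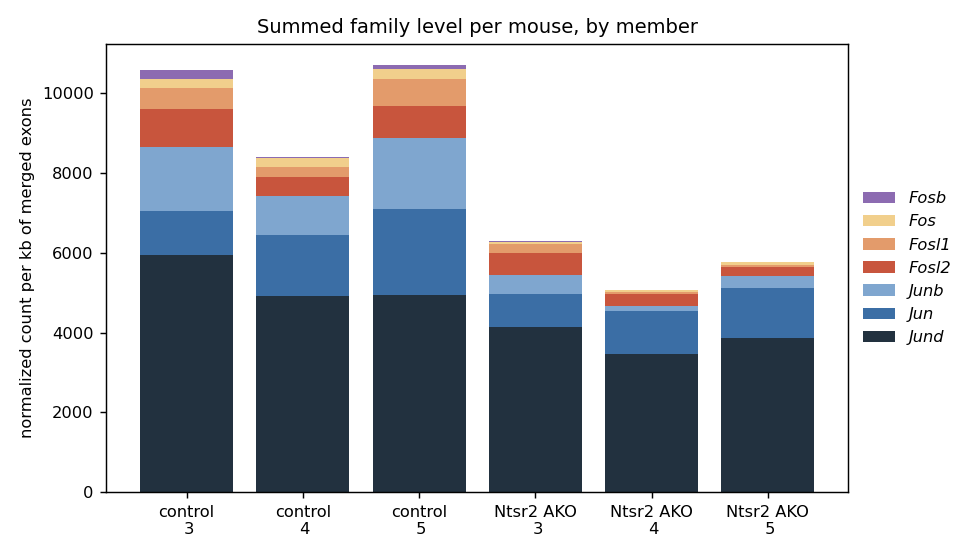
Normalized counts per kilobase of merged exons, summed over the 7 Fos and Jun genes and stacked by gene, for each mouse. The control bars reach 8380 to 10684 and the Ntsr2 AKO bars 5067 to 6284, and Jund is the largest block in every mouse.

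To find which genes ran most like each member, every gene tested was centred on its mean over the 6 mice and the root mean square (RMS) difference in log2 values was taken. Fos was nearest to Egr1, a zinc finger immediate early gene (RMS 0.22), and to Selp, the gene of P-selectin (0.24). Fosl1 was nearest to Maff, a small Maf bZIP gene (0.26), and to Tnfrsf12a, the TWEAK receptor gene (0.27). Junb was nearest to Bcl3 (0.20) and Lmx1a (0.21). Fosl2 was nearest to Palld and Klf9 (0.11 each), Jun to Atp5g1 (0.07) and Gm26785 (0.11), and Jund to Rassf1 (0.05) and Zfp36l1 (0.06). Fosb, the most variable member, had no such close neighbour, and its nearest genes were Ptx3 (0.52) and Hspb7 (0.70). Genes of small range come out near to many others by this measure, so the values rank genes only for 1 member at a time. The genotype difference that picked the members is part of each distance. A near gene thus partly restates that difference and is no independent sign of shared control.

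Genes around the family were then described in 6 lists ordered by role, from partners to targets. The lists were put together with earlier results of these data known, so they are no independent evidence of a direction. All genes tested again form the background. By limma 1 gene passed an adjusted p of 0.05 (0.00619% of 16157), by edgeR 0, and by DESeq2 219 (1.36%), of which 153 were lower in Ntsr2 AKO mice (0.947%). At an unadjusted p under 0.05 there were 1349 genes by limma (8.35%) and 1323 by edgeR (8.19%). Groups that did not overlap were lower in Ntsr2 AKO mice in 8.16% and higher in 6.82%. Creb1, Zfp36, Btg2, Maff and Atf3 are each in 2 lists. For the 18 genes that the naming rule took from the lists, the adjusted p was highest without the 3 mice with muscle transcripts (limma adjusted p = 1.0) and lowest with DESeq2, except for Crtc2 (0.406 with limma without Ntsr2 AKO 3). In that reduced fit the median of the turnover list turned to 0.039, and those of the MAP kinases and regulators came to -0.038 and -0.047. The plot of the lists shows every gene.

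**Figure D4:**
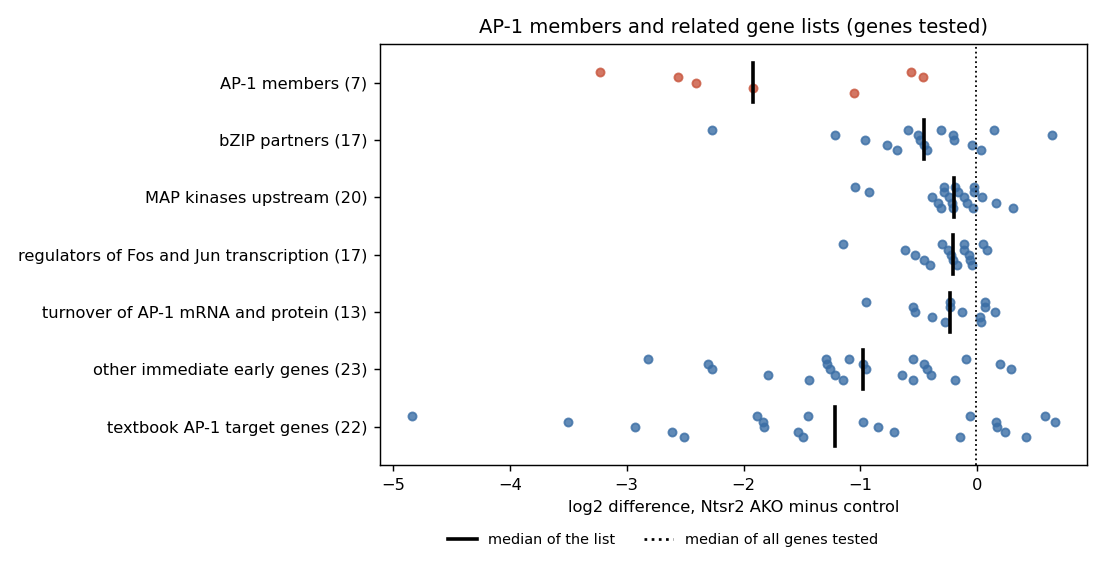
Log2 difference, Ntsr2 AKO minus control, of each gene tested in the family and in the 6 related lists (points are genes, bars are list medians, the dotted line is the median of all genes tested, and the number tested is in brackets). The medians of the other immediate early genes (-0.97) and textbook targets (-1.21) lie farthest from the median of all genes among the 6 related lists, and the 3 lists of kinases, regulators and turnover genes between -0.23 and -0.20.

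Other bZIP proteins share the DNA-binding fold of the family and pair with its members or compete for its sites. Of 17 such genes, all tested, 4 (Maff, Atf3, Atf4 and Creb5) were lower in Ntsr2 AKO mice with no overlap and none was higher, and the list median was -0.45. limma and edgeR called 0 of them, with 4 at an unadjusted limma p under 0.05, and DESeq2 called 1, Maff. Maff was read at 1888, 1095 and 2509 normalized counts in controls 3, 4 and 5 and at 798, 238 and 239.9 in Ntsr2 AKO mice 3, 4 and 5. Its groups were apart, and Ntsr2 AKO 3 was again the highest of its group. The log2 difference was -2.27 (SE 0.53) with a limma adjusted p of 0.520 and a DESeq2 adjusted p of 0.00892. Atf3, a stress-induced partner of Jun proteins, was at 558 ± 86.4 and 259 ± 113, a difference of -1.21 (SE 0.38, limma adjusted p = 0.535, DESeq2 0.168). Mafk, another small Maf, was at 2969 ± 1075 and 1475 ± 346 with overlapping groups (-0.96, SE 0.33, limma adjusted p = 0.558, DESeq2 0.112).

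The mitogen-activated protein (MAP) kinases phosphorylate Fos and Jun proteins and the factors that switch their genes on. Of the 22 genes of this list 20 were tested, and 4 were lower without overlap and none higher (Map2k1, Map2k2, Map2k3 and Map2k6), with a median of -0.20. limma and edgeR called 0, with 2 at an unadjusted limma p under 0.05, and DESeq2 called 1. That gene was Map2k3, a kinase of p38, at 3974, 3319 and 5833 normalized counts in the controls and 2559.9, 1907 and 2277 in the Ntsr2 AKO mice. All 3 Ntsr2 AKO mice were below the lowest control mouse, a difference of -0.93 (SE 0.23, limma adjusted p = 0.520, DESeq2 0.0225). Map2k6, the other p38 kinase, was at 369 ± 172 and 171 ± 50.7 (-1.05, SE 0.39, limma adjusted p = 0.565, DESeq2 0.248). Map2k1, which acts on the ERK kinases, differed little, at 3619 ± 215 and 3065 ± 196 (-0.24, SE 0.11, limma adjusted p = 0.612, DESeq2 0.524). The kinases of Jun proteins themselves were near level in RNA, with Mapk8 and Mapk9 at -0.03 each, and Mapk10 was below the filter.

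Transcription of Fos and Jun is driven by serum response factor with its cofactors and by CREB with its coactivators. Of 17 such regulators, all tested, Srf and Mkl2 were lower without overlap and none was higher, and the median was -0.21. limma, edgeR and DESeq2 called 0 of the 17, with 2 at an unadjusted limma p under 0.05. Srf was at 2556, 2046 and 2597 normalized counts in the controls and 1795, 1935 and 1510.0 in the Ntsr2 AKO mice, 2 groups that lay apart but close (-0.46, SE 0.15, limma adjusted p = 0.557, DESeq2 0.268). Mkl2, a cofactor of Srf, was at 1442 ± 249 and 719 ± 432 (-1.15, SE 0.38, limma adjusted p = 0.557, DESeq2 0.282), and Crtc2, a coactivator of CREB, at 3036 ± 204 and 2466 ± 302 (-0.30, SE 0.13, limma adjusted p = 0.600, DESeq2 0.504). Creb1 itself was at -0.04.

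Transcripts and proteins of the family are short-lived, and a further list held 13 genes that act on their stability, all tested. Of these, 4 were lower without overlap and none higher (Zfp36, Zfp36l1, Khsrp and Btg2), with a median of -0.23. limma, edgeR and DESeq2 called 0, with 3 at an unadjusted limma p under 0.05. Zfp36 encodes tristetraprolin, which binds AU-rich elements of such transcripts, and was at 6358 ± 2376 and 3228 ± 882 (-0.95, SE 0.30, limma adjusted p = 0.541, DESeq2 0.107). Its relative Zfp36l1 was at 8930.0 ± 1197 and 6792 ± 666 (-0.39, SE 0.14, limma adjusted p = 0.565, DESeq2 0.311), and Btg2 at 2667 ± 174 and 1858 ± 479 (-0.55, SE 0.20, limma adjusted p = 0.565, DESeq2 0.345). The ubiquitin ligase genes Fbxw7 (0.15), Rfwd2 (-0.13) and Itch (0.06), whose proteins mark Jun for degradation, had differences near that of all genes.

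Other immediate early genes, which are induced together with Fos in many cells, held the gene called by limma. Of 24 genes 23 were tested, 13 were lower without overlap and none was higher, with a median of -0.97. limma called 1, with 13 at an unadjusted p under 0.05, edgeR called 0 and DESeq2 called 5 (Egr1, Ier3, Cyr61, Arc and Maff), all lower. Egr1 was read at 2411, 2020 and 2627 normalized counts in controls 3, 4 and 5 and at 513, 407 and 507 in Ntsr2 AKO mice 3, 4 and 5. The 3 mice of each group lay close together, and the groups were far apart in each of the 9 pairs of mice. Egr1 fell by 2.30 on the log2 scale (SE 0.16) with a limma adjusted p of 0.0442, a DESeq2 adjusted p of 5.8e-30 and an edgeR adjusted p of 0.0512. The limma call was lost when any 1 mouse was left out (adjusted p = 0.0974 to 0.449, difference -2.41 to -2.20), and without the 3 mice with muscle transcripts the difference was -2.10 (limma adjusted p = 1.0).

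Cyr61, which encodes a secreted matrix protein, was at 2798, 2126 and 2000.1 normalized counts in the controls and at 1108, 819 and 945 in the Ntsr2 AKO mice. The groups were well apart (-1.26, SE 0.18, limma adjusted p = 0.355, DESeq2 4.1e-06). Arc, best known from neurons, was at 1006, 2379 and 2216 in the controls and 546, 101 and 273 in the Ntsr2 AKO mice, with no overlap (-2.82, SE 0.63, limma adjusted p = 0.520, DESeq2 0.00137). Not every immediate early gene was lower, and Klf2 (0.29) and Klf4 (0.20) had higher means in Ntsr2 AKO mice with overlapping groups. Nr4a1 overlapped too, since control 5 at 2647 normalized counts stood far above control 3 at 535 and control 4 at 269.

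The last list held 24 textbook targets of AP-1, matrix proteases, inflammatory mediators and regulators of growth, of which 22 were tested. In Ntsr2 AKO mice 9 were lower without overlap and 1, the membrane protease gene Mmp14, was higher, and the median was -1.21. limma and edgeR called 0, with 9 at an unadjusted limma p under 0.05, and DESeq2 called 5, all lower, among them Plaur, Cxcl1, Ccl2 and Hmox1. The chemokine gene Ccl2 was at 1109.9, 1135 and 942 normalized counts in the controls and at 196, 123 and 211 in the Ntsr2 AKO mice. Both groups were narrow and apart, a difference of -2.61 (SE 0.24, limma adjusted p = 0.0643, DESeq2 4.2e-19). Plaur, the urokinase receptor gene, was at 574 ± 49.9 and 222 ± 98.6 (-1.45, SE 0.31, limma adjusted p = 0.499, DESeq2 0.0138).

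Among the other targets, the chemokine genes Cxcl1 (-4.84, SE 1.30) and Cxcl2 (-2.93, SE 1.04) were lower in Ntsr2 AKO mice without overlap. So was the cytokine gene Tnf (-1.53, SE 0.49). Their limma adjusted p was 0.522, 0.565 and 0.546, and their DESeq2 adjusted p 0.00706, 0.315 and 0.293. In 12 of the 22 targets tested the groups overlapped, among them Il6 (-0.71), Il1b (-1.83) and Ccl3 (-2.51). Mmp9 (0.67), Plau (0.42) and Mmp3 (0.17) had higher means in Ntsr2 AKO mice, also with overlap. Cxcl1 and Cxcl2 were low genes, at 80.5 to 465 and 25.8 to 44.4 normalized counts in controls and at 0 to 26.8 and 0 to 10.3 in Ntsr2 AKO mice. Fabp4, the adipocyte gene with an AP-1 site in its promoter, was at 0.23 (SE 0.37, limma adjusted p = 0.877, DESeq2 0.799), with overlapping groups.

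Markers of other cells were set beside these differences. Over all genes tested, groups did not overlap and were lower in Ntsr2 AKO mice in 8.16% and higher in 6.82%. Marker lists this short cannot be set against those shares, so no change in a cell type was read from the counts below. Of the neutrophil markers 1 of 4 was lower without overlap, and the 4 summed to 398 to 798 normalized counts in controls and 125 to 511 in Ntsr2 AKO mice. Of the mesothelial markers 1 of 5 was lower, and the sums were 157 to 470 and 142 to 177. The brown adipocyte markers Ucp1 and Cidea summed to 2134 to 4223 in controls and 4542 to 6447 in Ntsr2 AKO mice, with 1 of 2 higher without overlap. The 6 macrophage markers (22265 to 70303 and 23719.5 to 56097), the 5 endothelial markers (15812 to 24569 and 16065 to 21473) and the 6 fibroblast and progenitor markers (39864 to 85164 and 43526 to 151226) overlapped between the groups for each gene. So did each marker of lymphatic endothelium, T cells, B cells, epithelium and erythroid cells. No marker was at 0 in all 6 mice, and the part of any of these cells in the family's values was not tested.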

How the data were processed

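RNA from WATs was read by poly-T selected libraries. The authors trimmed reads with Trimmomatic, aligned them with Hisat2, quantified with StringTie and tested with DESeq2. The submitters' processing notes name HISAT2, StringTie and mm10. Versions and annotation are not given in the sources used here. The deposited values are a signal, normalized counts made by the authors. In each mouse every value (100%, tolerance 0.01) was a whole multiple of 1 step, so whole reads were recovered, and they were used for edgeR 4.0.16 and DESeq2 1.42.0 as alternatives. Because normalized counts are not counts, the main test was limma 3.58.1 in R 4.3.3, with a mean-variance trend, on log2(value + 1) for genes with a mean of at least 10, with Benjamini-Hochberg adjustment over 16157 genes and a threshold of 0.05. This scale can understate differences of low genes, and a 0 in 1 mouse can enlarge them. No columns were identical and none was left unused.

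The members and lists were chosen with earlier results of these data known. Named were the 7 members, the genes of each list past the limma threshold or, where fewer than 3 passed, the 3 with the smallest p, the 2 nearest genes of each member, Ntsr2, Adipoq and Fabp4. Other genes were named after their values were seen. The values of 1 gene that this rule names are not reported here. Exon lengths came from GENCODE M21, which held 19726 of the 21456 names. limma, edgeR, DESeq2 and the recovery of whole reads were tested on simulated data, and the sign-flip test and the likeness measure were not.

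The numbers 3, 4 and 5 occur in both groups of labels, and no source ties equal numbers to a shared litter, batch or day. Alternatives were pseudocounts of 0.1 and 5, a filter at a mean of 50 and no filter, quantile normalization, scaling by read total, limma without the trend, a replicate block, edgeR with TMM, DESeq2, each mouse left out in turn and, added after the data were seen, the 3 mice with skeletal muscle transcripts left out together.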

Additional observations from a re-analysis of the deposited data

How the results depend on the processing

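All 7 Fos and Jun genes were lower in Ntsr2 AKO mice under each of the 17 alternatives. With each mouse left out in turn, 5 to 6 of them did not overlap between groups, but leaving out a mouse cannot lower this count. The median of the 7 (-1.92) became -0.70 without control 5, Ntsr2 AKO 4 and Ntsr2 AKO 5, an alternative chosen after seeing the data that leaves 1 Ntsr2 AKO mouse, assumed to vary like the controls. In that fit the list medians were -0.23 for bZIP partners, -0.038 for MAP kinases, -0.047 for regulators, 0.039 for turnover genes, -0.63 for immediate early genes and -0.60 for targets. The kinase median was -0.093 with quantile normalization, and the regulator median -0.11 with scaling by read total. Leaving out 1 mouse at a time gave medians of -0.50 to -0.28 for bZIP partners, -0.25 to -0.10 for MAP kinases, -0.29 to -0.14 for regulators, -0.32 to -0.068 for turnover genes (lowest in size without control 5), -1.17 to -0.77 for immediate early genes and -1.35 to -0.73 for targets. The limma call of Egr1, the only gene called, became 0 genes called with no filter, scaling by read total, no trend, the replicate block or edgeR, without each mouse in turn (0 to 0) and without the 3 mice. DESeq2 called 219 genes, among them 1 bZIP partner, 1 MAP kinase, 5 immediate early genes and 5 targets. Deviations of equally numbered mice correlated at 0.45, -0.24 and 0.41 for numbers 3, 4 and 5. With 3 mice in each group, these values cannot show whether the numbers pair the mice. The replicate block left 1303 genes at an unadjusted limma p under 0.05 against 1349, with the member median at -1.92. Of the genes at an unadjusted p under 0.05, 852 were lower and 497 higher, against 612 and 633 with quantile normalization and 464 and 866 with scaling by read total. In the order of levels per kilobase, Junb over Fosl2 reversed to -0.36 in the Ntsr2 AKO mice alone. The lowest member value was 28 reads (Fosb, Ntsr2 AKO 4), and counting error was not set against the spread between mice. The causes of these changes were not tested.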
